A study of Mus musculus with 28 samples.

Results

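The genes described here are 10 members of the prolactin signalling chain, namely the prolactin receptor gene Prlr, the kinase gene Jak2, the transcription factor genes Stat5a, Stat5b and Stat3, the feedback inhibitor genes Cish, Socs1, Socs2 and Socs3, and the repressor gene Bcl6. They were picked by name, matched by symbol to the Ensembl identifiers of the count files, and make up 10 of 56748 identifiers. All 10 passed the filter on low counts in every comparison, but in those with 4T1 Prlr passed only through its HC11 libraries. The libraries came from a pair of mouse mammary lines and were made from total RNA after depletion of ribosomal RNA. There were 8 libraries of 4T1, a mammary cancer line, labelled DOX, then 10 libraries of HC11 labelled DOX + DIP and 10 libraries of HC11 labelled DOX, HC11 being an untransformed mammary epithelial line. All groups thus share DOX. The labels spell out neither DOX nor DIP and give no construct, clone, dose, time or culture. In work with HC11, DIP usually stands for dexamethasone, insulin and prolactin, and DOX is the common short form of doxycycline. Since the labels do not name separate cultures, the p-values measure the spread between these libraries, which may be technical.

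Prolactin binds its receptor on the mammary epithelial cell, and the kinase JAK2, which is attached to the receptor, then phosphorylates STAT5A and STAT5B. These enter the nucleus and switch on milk protein genes together with the glucocorticoid receptor, and they also induce CIS and SOCS proteins, which restrain the receptor and the kinase in a feedback loop. STAT3 is driven mainly by cytokines that signal through gp130, and in the mammary gland it is known for its role in involution after weaning, while BCL6 is a repressor whose DNA motif resembles that of the STAT proteins.

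Library totals were 174275141 to 198008179 counts in 4T1, 134117581 to 222065843 in HC11 DOX + DIP and 135955692 to 185616382 in HC11 DOX. Levels are given as CPM (a gene's counts per 1000000 of its library, scaled by TMM factors). All 10 mammary epithelial markers averaged over 0.1 CPM in both HC11 groups, and 9 of them did in 4T1, the exception being Elf5. Summed immune markers gave 3.59 to 9.50 CPM in 4T1, 2.80 to 12.6 in HC11 DOX + DIP and 1.78 to 3.25 in HC11 DOX, with Ptprc, Cd3e, Adgre1, Itgam and Nkg7 each averaging under 0.1 CPM in every group. Libraries 8 and 10 of the DOX + DIP group stood apart from the other 8. Their 10 glucocorticoid target genes summed to 317.9 and 351.6 CPM, against 1019 to 2353 CPM in the other DOX + DIP libraries and 232.4 to 371.9 CPM in HC11 DOX. The mean log2 CPM over the same 10 genes was 4.12 and 4.22, between 5.96 to 7.16 in the other DOX + DIP libraries and 3.19 to 3.62 in HC11 DOX. Their 10 mammary epithelial markers summed to 465.3 and 569.9 CPM, against 1674 to 2419 CPM in the other DOX + DIP libraries and 3531 to 8110 CPM in HC11 DOX. Elf5 averaged under 0.1 CPM in the pair too, as in 4T1. Krt5, Krt14, Krt6a, Trp63, Col17a1 and Igfbp3, which are high in HC11 DOX, summed to 175.8 and 249.3 CPM in the pair, against 1061 to 2157 CPM in the other DOX + DIP libraries, 3545 to 8812 CPM in HC11 DOX and 219.1 to 461 CPM in 4T1. The immune marker sums of the pair, 11.01 and 12.6 CPM, were the highest of the group. Whether the label of the pair is right was not tested, and the results on the 10 genes with DIP are given with and without it.

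In HC11 cells with DIP, Jak2, Stat5a, Stat5b and Bcl6 mRNA rose while Socs1 and Socs3 fell, and the test called neither a rise nor a fall for Prlr, Stat3, Cish and Socs2. These 6 of 10 genes passed at a p under 0.05 after Benjamini-Hochberg adjustment in edgeR's quasi-likelihood test, the source of each adjusted p unless another test is named, and 45.5% of all 23829 genes tested passed it (24.5% higher and 21.0% lower). For Jak2, Socs1 and Socs3 no DOX + DIP library overlapped any DOX library, which was so for 11.4% of all genes tested. Without DOX + DIP libraries 8 and 10, 8 of the 10 were called, now with Stat3 and Socs2 higher, beside 52.4% of all genes (27.0% higher and 25.4% lower), and 4 did not overlap (Bcl6 added), beside 17.9%. The median log2 fold change of the 10 was 0.36, and that of all genes tested was 0.06. Without that pair the median of the 10 was 0.53, and that of all genes tested was 0.005.

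**Figure D1:**
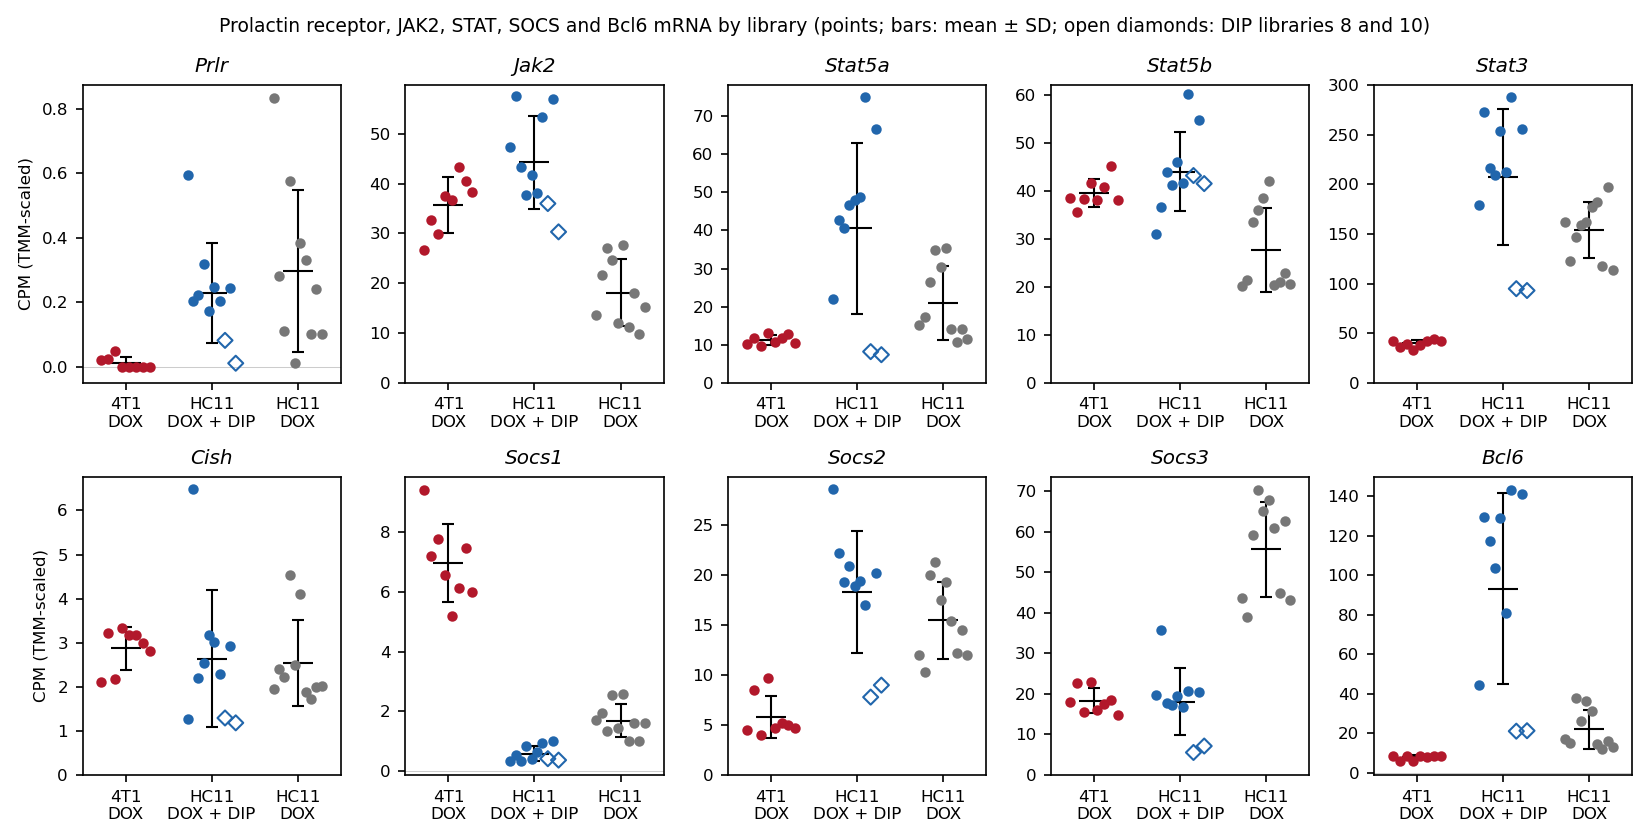
CPM of each of the 10 genes (vertical axes, TMM-scaled) in 4T1 DOX, HC11 DOX + DIP and HC11 DOX libraries (points), with bars for mean ± SD and open diamonds for DOX + DIP libraries 8 and 10. Stat3 and Bcl6 were lower in all 8 4T1 libraries than in any HC11 library, and Socs1 was higher in all 8.

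The receptor mRNA was scarce in every group, and in 4T1 it was at or near the limit that a count of 0 allows (3 counts). Prlr had a lowest value of 0.0120, a median of 0.214 and a highest value of 0.593 CPM in HC11 DOX + DIP, against 0.0112, 0.262 and 0.8325 CPM in HC11 DOX. These stand for 2 to 110 counts per DOX + DIP library and 2 to 131 per DOX library. The ranges lay almost on top of each other, and on the log2 scale they differed by -0.35 ± 0.53 (SE, adjusted p = 0.621). Without libraries 8 and 10 it was -0.10 (adjusted p = 0.875). In bulk RNA, fewer cells that express a gene and less of its RNA per cell cannot be told apart. Prl, which encodes the hormone itself, had 11 counts summed over the 8 4T1 libraries, 1 count over the 10 DOX + DIP libraries and 0 over the 10 DOX libraries.

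Jak2, which encodes the kinase bound to the receptor, rose 2.47-fold with DIP. Its lowest, median and highest values were 30.3, 42.6 and 57.6 CPM in HC11 DOX + DIP and 9.87, 16.6 and 27.8 CPM in HC11 DOX. Every DOX + DIP library, 8 and 10 included at 36.0 and 30.3 CPM, was above every DOX library. On the log2 scale the difference was 1.31 ± 0.20 (SE, adjusted p = 1.28e-05), and it was 1.38 without that pair.

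The genes of both STAT5 proteins rose, with DIP libraries spread far more widely for Stat5a than for Stat5b. Stat5a had 7.37, 44.7 and 74.9 CPM as lowest, median and highest values in HC11 DOX + DIP, against 10.7, 16.2 and 35.3 CPM in HC11 DOX. Libraries 7 and 9 were the highest with DIP, at 74.9 and 66.6 CPM, and libraries 8 and 10 were the lowest, at 8.18 and 7.37 CPM, below every DOX library. Over all libraries the log2 fold change was 0.97 ± 0.36 (SE, adjusted p = 0.0343). This call was sensitive to single libraries: with 1 left out at a time, the adjusted p ran from 0.00832 to 0.0713 and passed in 10 of 20 fits, whereas without both library 8 and library 10 the log2 fold change was 1.23 (adjusted p = 6.3e-04). The call was lost without DOX library 1, 2, 7, 8, 9 or 10 and without DOX + DIP library 5, 6, 7 or 9.

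Stat5b had 31.1, 42.5 and 60.2 CPM as lowest, median and highest values in HC11 DOX + DIP, against 20.2, 22.2 and 42.0 CPM in HC11 DOX. Here libraries 8 and 10 lay inside the range of the other DOX + DIP libraries, at 43.2 and 41.6 CPM. The groups overlapped because 4 DOX libraries, 3 to 6, reached 33.5 to 42.0 CPM while the other 6 lay between 20.2 and 22.9 CPM. DIP libraries were higher, on the log2 scale, by 0.69 ± 0.16 (SE, adjusted p = 0.00166), and 0.69 again without libraries 8 and 10. The same 4 DOX libraries were the highest of their group for Stat5a (26.6 to 35.3 CPM, against 10.7 to 17.2 in the other 6) and for Bcl6 (26.3 to 37.99 CPM, against 11.8 to 17.1). The labels name no batch that sets them apart.

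Counts per exon base set the STAT5 genes side by side. The ratio of Stat5a to Stat5b had a median of 0.845 in HC11 DOX + DIP (0.138 to 0.967) and 0.597 in HC11 DOX (0.395 to 0.751). Libraries 8 and 10 gave 0.147 and 0.138, whereas the other 8 DOX + DIP libraries lay between 0.5495 and 0.967. These ratios depend on the length used: with the longest coding transcript the medians were 1.46 in HC11 DOX + DIP (0.238 to 1.67) and 1.03 in HC11 DOX (0.6815 to 1.30), so which gene is higher in HC11 cannot be said. The transcripts of the paralogs share 608 stretches of 50 identical bases, which are 8.208% of those in Stat5a and 10.98% of those in Stat5b. A read lying wholly inside shared sequence could fit either gene, and how many reads did so was not tested. No other pair of the 10 genes shares such a stretch on the transcript strand. Stat5a and Stat3 overlap by 72 exon bases on opposite strands, so reads there could belong to either gene if counting ignored strand.

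Stat3, the factor of gp130 cytokines and of involution, lay at the threshold with DIP. Its lowest, median and highest values were 93.0, 214.4 and 287.9 CPM in HC11 DOX + DIP, against 113.3, 160.5 and 197.4 CPM in HC11 DOX. Libraries 8 and 10 held 94.8 and 93.0 CPM, below every DOX library, while the other 8 held 179.2 to 287.9 CPM. The log2 fold change was 0.45 ± 0.19 (SE, adjusted p = 0.0531) over all libraries and 0.63 ± 0.12 (adjusted p = 1.9e-04) without that pair. Leaving out library 8 or library 10 alone, or DOX library 9, was enough for the call.

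**Figure D2:**
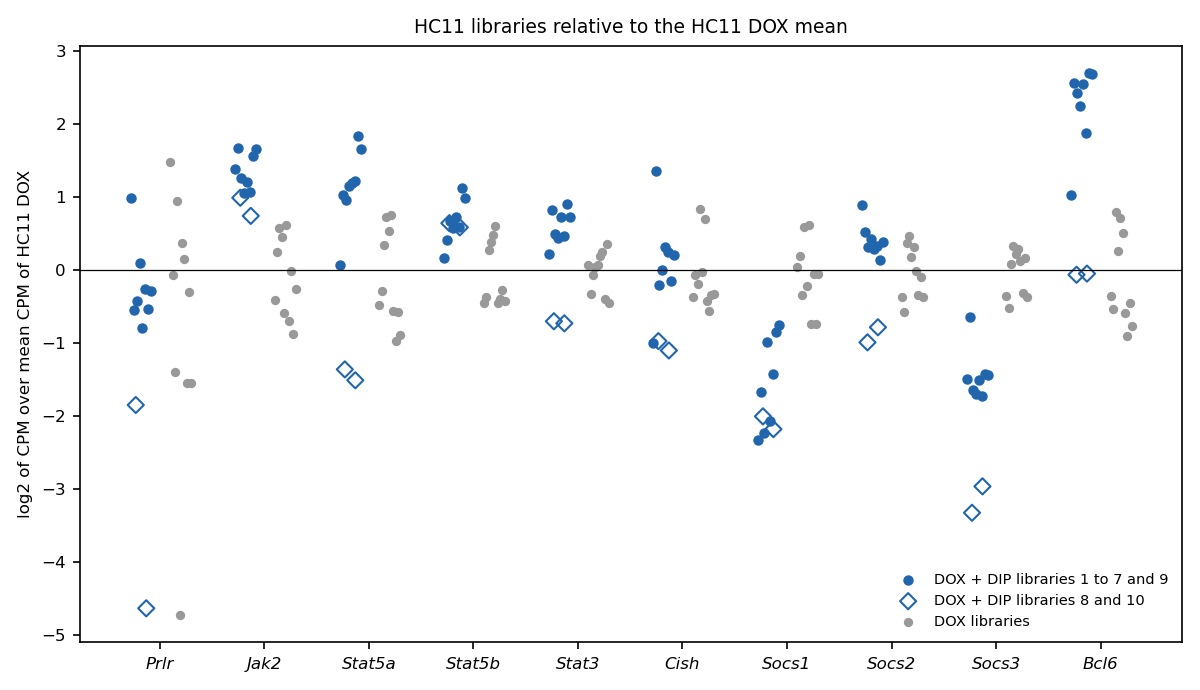
Each HC11 library's CPM over the mean CPM of the HC11 DOX group, on a log2 scale, for the 10 genes, with DOX + DIP libraries left of DOX libraries and open diamonds for DOX + DIP libraries 8 and 10. For Stat5a, Stat3 and Socs2 the diamonds lie below every DOX library, and for Jak2 above every one.

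Among the feedback inhibitors, Socs1 and Socs3 fell with DIP, and neither Cish nor Socs2 was called. With DIP, Socs3 thus fell and Bcl6 rose, while Cish was not called. The promoters of Cish, Socs3 and Bcl6 are shown because they hold the palindromic motif TTCNNNGAA, to which STAT proteins are known to bind. They are the RefSeq windows of 250 bases before to 50 bases after a transcription start (build GRCm38.p6, whereas the counts were made on GRCm39), 5′ to 3′ on the strand of the gene, with the motif in capitals: Cish at chr9:107296409-107296708 on the plus strand, Socs3 at chr11:117969317-117969616 on the minus strand and the first listed start of Bcl6 at chr16:23981234-23981533 on the minus strand.
Cish: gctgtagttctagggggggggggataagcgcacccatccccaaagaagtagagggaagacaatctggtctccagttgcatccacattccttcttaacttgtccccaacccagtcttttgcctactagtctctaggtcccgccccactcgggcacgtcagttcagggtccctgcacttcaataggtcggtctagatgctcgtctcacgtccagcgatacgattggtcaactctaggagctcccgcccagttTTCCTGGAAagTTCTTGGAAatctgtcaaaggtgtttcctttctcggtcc
Socs3: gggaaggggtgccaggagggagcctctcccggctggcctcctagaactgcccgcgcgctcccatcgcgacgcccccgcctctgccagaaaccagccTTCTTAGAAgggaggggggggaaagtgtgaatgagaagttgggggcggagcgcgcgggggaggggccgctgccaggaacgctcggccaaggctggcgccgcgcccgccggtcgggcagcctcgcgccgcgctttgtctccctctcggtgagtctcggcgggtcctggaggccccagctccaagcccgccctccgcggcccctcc
Bcl6: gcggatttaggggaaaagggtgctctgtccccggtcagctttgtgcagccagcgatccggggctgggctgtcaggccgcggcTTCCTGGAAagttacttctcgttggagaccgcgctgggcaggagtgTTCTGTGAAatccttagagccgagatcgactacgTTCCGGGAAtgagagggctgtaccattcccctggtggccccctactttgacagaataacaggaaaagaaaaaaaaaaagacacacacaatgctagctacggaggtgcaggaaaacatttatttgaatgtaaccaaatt

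The Cish window holds TTCCTGGAA at base 251, the start site itself, and TTCTTGGAA at base 262. The Socs3 window holds TTCTTAGAA at base 97. The Bcl6 window holds TTCCTGGAA at base 83, TTCTGTGAA at base 129 and TTCCGGGAA at base 163. The motif reads the same on both strands, and its tighter form TTCCNGGAA, found in Cish and Bcl6, is a part of it. Of the 14 windows that RefSeq lists for 9 of the genes, all but Socs2, 5 hold TTCNNNGAA, the others being a second window of Bcl6 and 1 of Prlr. Among all 32851 mouse windows of this length 8.298% hold TTCNNNGAA and 1.148% hold TTCCNGGAA. These are matches of letters, not measured binding.

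Cish, which encodes the inhibitor CIS and is a classic STAT5 target, stayed at a few CPM. Its lowest, median and highest values were 1.18, 2.42 and 6.49 CPM in HC11 DOX + DIP, against 1.71, 2.13 and 4.53 CPM in HC11 DOX. Library 2 of the DOX + DIP group was the highest, at more than any DOX library, and libraries 1, 8 and 10 were below every DOX library. The log2 fold change over all libraries was 0.08 ± 0.28 (SE, adjusted p = 0.849), and it was -0.18 (adjusted p = 0.562) without DOX + DIP library 2. Without libraries 8 and 10 it was 0.25 (adjusted p = 0.451). The antisense gene Gm17041 overlaps 479 exon bases of Cish, with a mean of 107 counts per library beside 456.6 for Cish, and the strand setting of the counting is not given in the sources used here.

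Socs1, best known for restraining JAK kinases and interferon signalling, fell 2.85-fold. It had 0.334, 0.476 and 1.00 CPM as lowest, median and highest values in HC11 DOX + DIP, against 1.01, 1.62 and 2.60 CPM in HC11 DOX. The highest DOX + DIP library lay just below the lowest DOX library, and libraries 8 and 10 lay inside the range of the other DOX + DIP libraries. On the log2 scale the difference was -1.51 ± 0.25 (SE, adjusted p = 3.89e-05), and -1.41 without that pair.

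Socs2, which tempers growth hormone receptor signalling, had 7.79, 19.4 and 28.6 CPM as lowest, median and highest values in HC11 DOX + DIP, against 10.3, 14.9 and 21.3 CPM in HC11 DOX. Library 1 was the highest with DIP, and libraries 8 and 10 were below every DOX library at 7.79 and 8.98 CPM. The log2 fold change was 0.26 ± 0.20 (SE, adjusted p = 0.298) over all libraries. Without that pair it was 0.44 ± 0.14 (adjusted p = 0.0147).

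Socs3, the inhibitor that acts on gp130 and so on STAT3, fell 3.03-fold. It had 5.57, 18.7 and 35.8 CPM as lowest, median and highest values in HC11 DOX + DIP, against 39.0, 60.1 and 70.4 CPM in HC11 DOX. All DOX + DIP libraries were below all DOX libraries, and libraries 8 and 10 were the lowest of all at 5.57 and 7.15 CPM. On the log2 scale the difference was -1.60 ± 0.24 (SE, adjusted p = 1.41e-05), and -1.39 without that pair. Per exon base, the ratio of Socs3 to Socs2 had a median of 2.96 in HC11 DOX + DIP (2.28 to 5.33) and 12.1 in HC11 DOX (9.77 to 14.2), so these ranges did not overlap. With the longest coding transcript the medians were 0.782 in HC11 DOX + DIP (0.603 to 1.41) and 3.19 in HC11 DOX (2.58 to 3.75), again without overlap, but with Socs3 below Socs2 in 8 of the 10 DOX + DIP libraries.

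Bcl6, the repressor gene, rose most among the 10, by 4.30-fold. It had 20.97, 110.6 and 142.9 CPM as lowest, median and highest values in HC11 DOX + DIP, against 11.8, 16.6 and 37.99 CPM in HC11 DOX. The groups overlapped only through libraries 8 and 10 of the DOX + DIP group, which held 20.97 and 21.2 CPM and lay inside the DOX range, while the other 8 held 44.6 to 142.9 CPM. As a log2 fold change the rise was 2.10 ± 0.36 (SE, adjusted p = 5.46e-05), and 2.35 ± 0.27 without that pair. Libraries 8 and 10 thus lay outside the DOX range, on the same side as the other DOX + DIP libraries, for Jak2, Socs1 and Socs3. They lay below that range for Stat5a, Stat3, Cish and Socs2, and inside it for Prlr and Bcl6. For Stat5b, library 8 lay above it and library 10 inside it. The part that their low glucocorticoid targets and epithelial markers have in these results was not tested.

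In 4T1 cells against HC11 DOX, 9 of the 10 genes were called, where 69.9% of all 23875 genes tested were called (34.3% higher and 35.6% lower). Jak2, Stat5b and Socs1 were higher, and Prlr, Stat5a, Stat3, Socs2, Socs3 and Bcl6 were lower, while Cish was not called. Stat3, Socs1, Socs2, Socs3 and Bcl6 did not overlap between the groups, which was so for 37.0% of all genes. The median log2 fold change of the 10 was -1.19, and that of all genes tested was -0.01.

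Prlr was lowest in 4T1, with 4, 4 and 8 counts in libraries 1, 2 and 3 and 0 counts in libraries 4 to 8. Over all libraries there were 16 counts in 8 4T1 libraries and 499 counts in 10 HC11 DOX libraries. The fitted log2 fold change of -4.55 ± 0.80 (SE, adjusted p = 4.26e-05) rests on these few counts. Prlr passed the filter here only through the HC11 libraries, so a call could only be lower in 4T1. The same 6 genes high in HC11 DOX (Krt5 to Igfbp3) stood in 4T1 libraries 1, 2 and 4 at 5.52, 7.30 and 5.42% of their mean sum in HC11 DOX, and at 3.47 to 4.49% in the other 5. Library 3, with the most Prlr counts, had the lowest share, and library 4 had 0 Prlr counts. By mean log2 CPM over those 6 genes, 4T1 libraries 1 and 2 were the highest, at 4.12 and 4.65. The remaining 4T1 libraries lay between 1.99 and 3.05. Where the Prlr counts in 4T1 came from was not tested.

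Jak2 had 26.8, 37.2 and 43.4 CPM as lowest, median and highest values in 4T1, against 9.87, 16.6 and 27.8 CPM in HC11 DOX. Only 4T1 library 1 fell inside the DOX range, and the log2 fold change was 0.95 ± 0.19 (SE, adjusted p = 2.00e-04). Stat5b, at 35.7, 38.4 and 45.3 CPM in 4T1, was 0.49 ± 0.16 higher on the log2 scale (adjusted p = 0.00923), with DOX libraries 4 to 6 inside the 4T1 range. Stat5a went the other way, with 9.59, 11.2 and 13.0 CPM in 4T1 and a log2 fold change of -0.93 ± 0.23 (adjusted p = 0.00149), although DOX libraries 8 and 10 lay inside the 4T1 range. The ratio of Stat5a to Stat5b per exon base was 0.195 to 0.258 in 4T1 and 0.395 to 0.751 in HC11 DOX, without overlap.

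Stat3 was 3.95-fold lower in 4T1, with 32.9, 40.5 and 44.5 CPM as lowest, median and highest values, against 113.3, 160.5 and 197.4 CPM in HC11 DOX. The highest 4T1 library was far below the lowest HC11 DOX library, and the log2 fold change was -1.98 ± 0.12 (SE, adjusted p = 8.73e-12). Bcl6 was 2.91-fold lower, with 5.64, 8.24 and 8.65 CPM in 4T1 and a log2 fold change of -1.54 ± 0.24 (adjusted p = 1.06e-05).

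The inhibitors split in 4T1. Socs1 was 4.06-fold higher, with 5.18, 6.88 and 9.40 CPM as lowest, median and highest values in 4T1, against 1.01, 1.62 and 2.60 CPM in HC11 DOX (log2 fold change 2.02 ± 0.19, adjusted p = 7.47e-09). Socs3 was 3.11-fold lower, with 14.9, 17.8 and 22.95 CPM in 4T1 (log2 fold change -1.64 ± 0.13, adjusted p = 1.23e-09). Socs2 was 2.73-fold lower (log2 fold change -1.45 ± 0.19, adjusted p = 1.20e-06), and 4T1 libraries 2 and 4 held 8.51 and 9.65 CPM while the other 6 held 3.95 to 5.24 CPM. The same pair of 4T1 libraries was highest for Socs3, at 22.8 and 22.95 CPM, and lowest for Bcl6, at 5.88 and 5.64 CPM. Cish had 2.10, 3.08 and 3.33 CPM in 4T1, inside the HC11 DOX range, with a log2 fold change of 0.15 ± 0.19 (adjusted p = 0.505). Per exon base, the ratio of Socs3 to Socs1 was 1.93 to 3.52 in 4T1 and 20.3 to 62.4 in HC11 DOX.

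**Figure D3:**
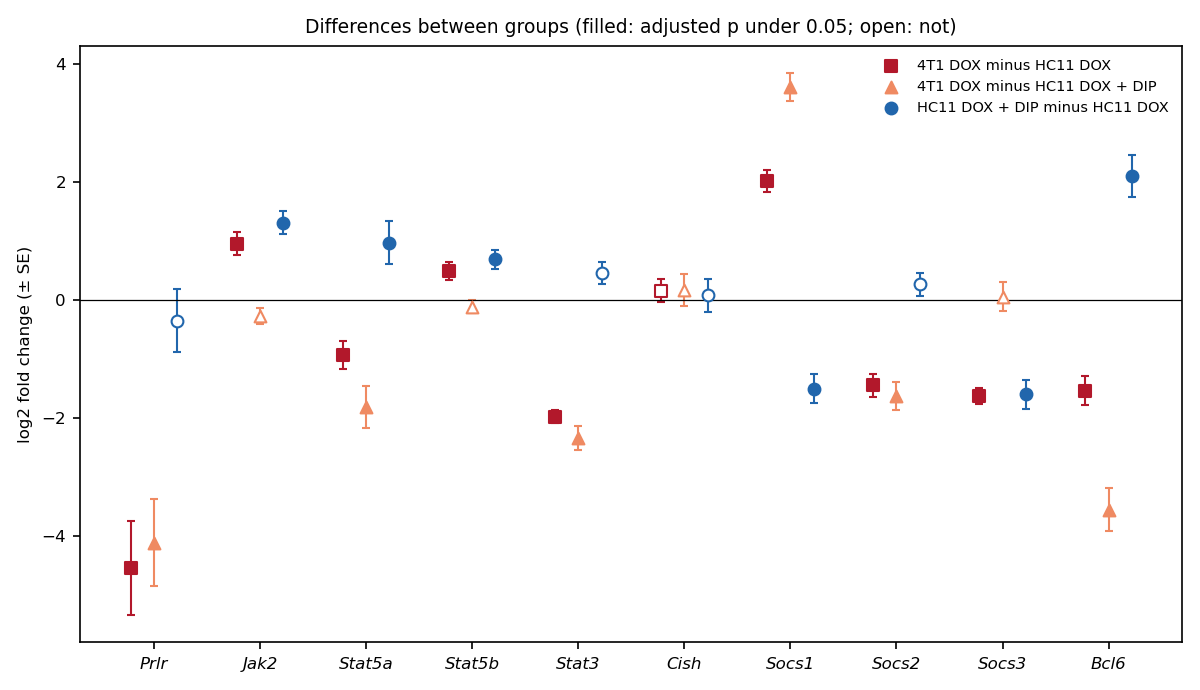
Log2 fold change ± SE of each of the 10 genes for 4T1 against HC11 DOX, 4T1 against HC11 DOX + DIP and DIP in HC11, with filled symbols at an adjusted p under 0.05. Socs3 lay at -1.60 for DIP and -1.64 for 4T1 against HC11 DOX, while Socs1 lay at -1.51 and 2.02.

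Against HC11 DOX + DIP, 6 of the 10 genes were called in 4T1, where 73.8% of all 24132 genes tested were called (35.9% higher and 37.9% lower), and 3 did not overlap (Stat3, Socs1 and Bcl6), as did 39.6% of all genes. The comparisons share libraries, so they are not independent. Socs1 was 12.2-fold higher (log2 fold change 3.61 ± 0.24, adjusted p = 9.26e-11). Bcl6 was 11.8-fold lower (log2 fold change -3.56 ± 0.37, adjusted p = 5.28e-08) and Stat3 was 5.09-fold lower (-2.35 ± 0.20, adjusted p = 3.69e-09). Stat5a (-1.81), Socs2 (-1.63) and Prlr (-4.12, with 416 counts summed over the DOX + DIP libraries) were lower as well. Again Prlr passed the filter only through the HC11 libraries. Socs3 differed by 0.05 ± 0.25 on the log2 scale (adjusted p = 0.859), with 14.9 to 22.95 CPM in 4T1 inside the range of 5.57 to 35.8 CPM in HC11 DOX + DIP. Jak2 (-0.27 ± 0.13, adjusted p = 0.0675), Stat5b (-0.12 ± 0.11, adjusted p = 0.334) and Cish (0.16 ± 0.27, adjusted p = 0.608) were not called. Without DOX + DIP libraries 8 and 10, Jak2 was called lower (-0.42, adjusted p = 0.00321), which made 7 of 10 beside 79.6% of all genes (39.3% higher and 40.3% lower), and 6 did not overlap (Prlr, Stat5a and Socs2 added), beside 53.9%.

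Levels between genes were compared as TPM, which divides counts by gene length. Taking all exons, Stat3 (42.6 ± 14.6 TPM, SD, n = 10) and Bcl6 (27.2 ± 14.6) led in HC11 DOX + DIP, whereas Socs3 (36.2 ± 7.77) and Stat3 (30.5 ± 6.33) led in HC11 DOX. In 4T1 the first places were those of Stat5b (10.2 ± 1.31, SD, n = 8) and Jak2 (10.1 ± 1.94), which did not differ beyond their spread. With the length of the longest coding transcript, the same pairs led in each group, but Stat3 stood above Socs3 in HC11 DOX (40.5 and 34.6 TPM). Within libraries, Stat3 was above Bcl6 in all 10 DOX + DIP libraries by either length, with a median ratio of 1.45 by all exons and 1.20 by the longest coding transcript. In HC11 DOX the order of Socs3 and Stat3 turned with the length, Socs3 being higher in 9 of 10 libraries by all exons and in 1 of 10 by the longest coding transcript. Prlr came last in every group by either length, at 0.00114 ± 0.00182 TPM in 4T1, 0.0288 ± 0.0180 in HC11 DOX + DIP and 0.0373 ± 0.0318 in HC11 DOX.

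For the 5 genes whose log2 CPM varied with an SD of at least 1 over the 28 libraries, the 3 genes with the most similar profile among 10495 compared were found by the root mean square difference of log2 CPM, each gene centred on its own mean. Nearest to Stat3 were Lrrc8e (0.25), Tob1 (0.26) and Slc4a3 (0.28), and nearest to Stat5a were Dcaf6 (0.31), Sec14l1 (0.32) and Pld1 (0.33). Bcl6 lay closest to Zhx3 (0.39), Ldlrad3 (0.39) and Foxo1 (0.41). Socs1 lay closest to Tsku (0.43), Fhl3 (0.44) and Asap1 (0.47). The nearest profiles to Prlr were at 0.93 (Casp1), 0.96 (Osmr) and 0.99 (Psd3), farther than for the other 4. Prlr had the largest SD (1.99) and few counts, whereas the genes compared had a mean log2 CPM of at least 2. Its larger distance is therefore no measure of how unusual its profile is.

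Of 99 other genes of the pathway, 78 were tested for DIP in HC11, and 30 were higher and 12 lower (53.9%, beside 45.5% of all genes), at a median of 0.24 on the log2 scale. Without DOX + DIP libraries 8 and 10, 35 were higher and 16 lower (65.4%, beside 52.4% of all genes). Among other receptors, 8 of 16 tested were higher and 2 lower (9 and 2 without that pair), including Ghr, the growth hormone receptor, at 55.8 ± 31.7 CPM in HC11 DOX + DIP and 22.1 ± 10.3 CPM in HC11 DOX (SD, n = 10 each; log2 fold change 1.35, adjusted p = 0.0130). The interleukin 6 receptor gene Il6ra rose by 1.28 on the log2 scale, and by 0.76 without DOX + DIP libraries 8 and 10. Of 7 other JAK and STAT genes, Stat2, which acts downstream of type I interferon, rose by 1.44 and Jak1 by 0.34, and no others were called. Without that pair 3 of the 7 were called, all higher, Stat2 and Jak1 among them. Of 4 other SOCS genes, only Socs7 was called, at 0.73, and at 0.36 without libraries 8 and 10. Among phosphatases, PIAS proteins and adaptors, 5 of 16 tested were called, all of them higher, led by Pias1 (0.96) and Nmi (0.95), and without that pair 6 were higher and 2 lower. Of 10 ligands tested, 2 were higher and 3 lower (3 and 5 without that pair), with Lif at -0.78 and Epo at -0.46.

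The listed target genes moved in both directions with DIP. Of all genes tested, 45.5% were called (24.5% higher and 21.0% lower). The share was 52.4% without DOX + DIP libraries 8 and 10 (27.0% higher and 25.4% lower). Of 20 STAT5 targets, 9 were tested, and 1 was higher and 4 lower, with or without DOX + DIP libraries 8 and 10, with Id1, an inhibitor of differentiation, at -2.59 and Ccnd1, which encodes cyclin D1, at -1.57. The other 11, among them Csn1s1, Csn2, Csn3 and Wap, the milk protein genes, averaged under 0.1 CPM in both HC11 groups. Csn2 had 20 counts summed over the DOX + DIP libraries and 0 over the DOX libraries. The 20 came from 4 of the 10 libraries, and 1 library held 14 of them. Csn3 had 39 over the DOX + DIP libraries, 3 over the DOX libraries and 93 over the 8 4T1 libraries. Wap had 41 over the DOX + DIP libraries and 19 over the DOX libraries. Of 18 STAT3 targets, 11 were higher and 3 lower, and 13 and 3 without that pair, with Lcn2, which encodes lipocalin 2, at 4.09 (18.2 to 756.7 CPM in HC11 DOX + DIP and 2.58 to 36.2 CPM in HC11 DOX) and Birc5, which encodes survivin, a protein of dividing cells, at -4.62.

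In 4T1 against HC11 DOX, 79 of the 99 genes were tested, and 31 were higher and 36 lower (84.8%, beside 69.9% of all genes), at a median of -0.05 on the log2 scale. The receptors that pair with gp130 for leukaemia inhibitory factor and oncostatin M were low: Lifr held 0.561 ± 0.448 CPM in 4T1 (n = 8) and 26.9 ± 4.94 CPM in HC11 DOX (n = 10), and Osmr held 5.09 ± 1.05 CPM in 4T1 and 67.2 ± 17.7 CPM in HC11 DOX. The ligand gene Lif was higher, with a mean of 49.4 ± 8.63 CPM in 4T1 against 12.6 ± 3.87 CPM in HC11 DOX, as was Clcf1 (log2 fold change 1.56). Tyk2 (-0.66) and Socs5 (-0.61) were lower and Socs6 (0.53) was higher. Among adaptors and their partners, Nmi (1.81) was higher and Sirpa (-1.77) lower. Among targets, Ccnd1 was higher (1134 ± 125 CPM in 4T1 and 186.8 ± 33.9 CPM in HC11 DOX), and Id2 (-3.00), Igfbp5 (-5.91) and Lbp (-4.50) were lower. In 4T1 against HC11 DOX + DIP, 26 of 79 were higher and 30 lower (70.9%, beside 73.8% of all genes). Lifr lay at -6.67, Osmr at -3.88, Stat2 at -1.41 and Ccnd1 at 4.22. Without DOX + DIP libraries 8 and 10, 28 were higher and 33 lower (77.2%, beside 79.6%). In that fit Lifr lay at -7.02, Osmr at -4.23, Stat2 at -1.66 and Ccnd1 at 4.27.

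**Figure D4:**
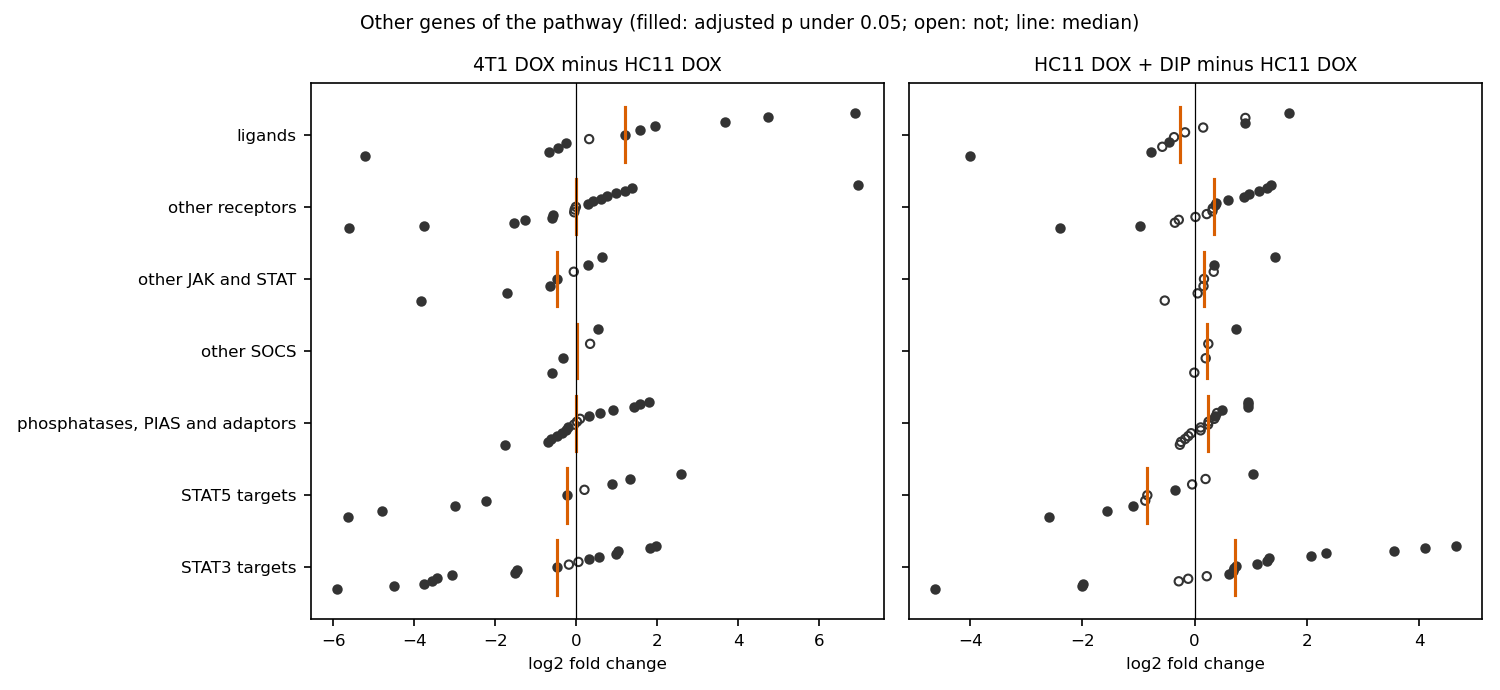
Log2 fold change of the other pathway genes by list (rows) for 4T1 against HC11 DOX and for DIP in HC11 (panels), with filled points at an adjusted p under 0.05 and lines at each list's median. With DIP the other receptors had a median of 0.34, beside 0.06 for all genes tested. Lifr and Osmr lay at -5.61 and -3.75 in 4T1 against HC11 DOX.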

How the data were processed

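Gene counts of 28 HC11 and 4T1 libraries were used. Per the labels' protocols, RNA was extracted with TRIzol and libraries were prepared with a NEBNext Ultra II kit that removes ribosomal RNA. The submitters' processing notes name fastp 0.23.2, featureCounts 2.0.1 and the build GRCm39 (the aligner and whether counting used strand: not given in the sources used here). Whole read counts per gene were deposited, with no normalisation. Symbols came from GENCODE vM21, which named 52073 of 56748 identifiers. Groups followed the cell line and treatment labels, and library numbers are only names.

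Each pair of groups was fitted with edgeR 4.0.16 (R 4.3.3) using filterByExpr, TMM factors, glmQLFit with robust estimation and glmQLFTest, with Benjamini-Hochberg adjustment over all genes tested; calls are at an adjusted p under 0.05. SE is the size of the log2 fold change divided by the square root of F. For CPM, TMM factors were taken over the 28 libraries together, and log2 CPM had a prior count of 2. The procedure was tested on simulated data. For DIP in HC11 it recovered 17.9% of 1.5-fold, 44.8% of 2-fold and 89.4% of 4-fold changes. A gene that was not called may thus still differ. Alternatives were other scaling factors, DESeq2 1.42.0, voom in limma 3.58.1, no filter, a fit over all groups, and libraries left out. Libraries of a group all differed beyond counting noise (chi-square over degrees of freedom at least 17.7). A count of 0 allows up to 3 counts of a library's total, for counting error only.

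The 10 genes, the gene lists and the alternatives were chosen with earlier results of these data known. Beside the 10, the genes named are, for each list and comparison, up to 2 called genes with the largest change at a mean log2 CPM of at least 2. Milk protein genes and Prl were named after their values were seen. Some genes that this rule picks are not reported here.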

Additional observations from a re-analysis of the deposited data

Results flagged for a closer look

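In 3 of 30 groups of values (10 genes in 3 groups of libraries), the extreme library stood farther from its nearest neighbour than Dixon's 95% critical value allows, and chance alone gives about 1 in 20. Prlr in DOX + DIP library 1 was at 0.5934 CPM, with the next library at 0.319 CPM. Cish in DOX + DIP library 2 was at 6.493 CPM, with the next at 3.17 CPM. Socs3 in DOX + DIP library 2 was at 35.84 CPM, with the next at 20.7 CPM.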

How the results depend on the processing

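The number of the 10 genes called stayed between 5 and 8 for DIP in HC11 (main 6; 5 to 7 with single libraries left out), at 9 for 4T1 against HC11 DOX under every alternative, and between 6 and 8 for 4T1 against HC11 DOX + DIP (main 6), where single libraries were not left out. Over all genes and alternatives, 566 values kept direction and side of the threshold, 14 gained a call, 12 lost one and 8 changed sign, none of the 8 called. The sign changed for Cish with DIP under voom (-0.029) and without DOX + DIP library 2 (-0.18, the range being -0.18 to 0.21 with single libraries left out), for Cish in 4T1 against HC11 DOX + DIP without DOX + DIP libraries 8 and 10 (-0.083), and for Socs3 in the same comparison under RLE factors (-0.052), upper-quartile factors (-0.093), DESeq2 (-0.051), without DOX + DIP libraries 8 and 10 (-0.23) and without 4T1 libraries 1 and 2 (-0.046). Stat5a with DIP was not called under voom (adjusted p = 0.118) or with no filter (0.0585). Stat3 with DIP was called under RLE factors (0.0420), upper-quartile factors (0.0371), DESeq2 (0.0475) and the fit over all groups (0.0298). Jak2 in 4T1 against HC11 DOX + DIP was called lower under RLE (0.0151), upper-quartile factors (0.00462) and DESeq2 (0.0152), and Stat5b under upper-quartile factors (0.0245). In that comparison RLE and upper-quartile factors moved the median of all genes to -0.14 and -0.20, against -0.04. The cause of these changes was not tested. No paired analysis was possible because the labels number no replicates.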
